A study of Mus musculus with 15 samples.

Results

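The comparison set 3 libraries from the epithelium of the uterine glands (glandular epithelium, GE) against 3 from the epithelium facing the uterine cavity (luminal epithelium, LE), in mice of the E-OEX group. These are 6 of the 15 RNA sequencing libraries of the series, chosen by their labelled group. The genotype label of E-OEX reads as overexpression of Notch1, and both epithelia carry it. Samples were labelled day 4. The wild-type controls, Ctrl-LE and Ctrl-GE with 3 libraries each and no overexpression, enter where the difference between epithelia was compared with that of wild type. A further group, U-OEx-LE, was not used. The labels give neither the meaning of E-OEX nor the promoter or Cre line behind the overexpression, and they do not state whether the replicates came from separate animals. The p-values therefore measure the spread between these libraries, which may be technical. Notch1 itself is not among the genes tabulated for E-OEX and was not analysed here, so the overexpression was not checked on the gene.

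In the mouse uterus, the luminal epithelium meets the blastocyst at implantation. The glands secrete factors, among them leukemia inhibitory factor (Lif), that the uterus needs to become receptive, and the forkhead factor Foxa2 is required for gland development and function. Notch receptors are cut after they bind a Delta or Jagged ligand on a neighbouring cell. The freed intracellular part joins the DNA-binding protein RBPJ and turns on targets such as the Hes and Hey repressors.

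The authors' tables give a scaled read count for each gene, that is, the reads of a gene divided by 1 factor per library. They list 4903 genes for E-OEX, 222 of which are unannotated transcripts without a symbol. The log2 ratio of the GE to the LE group mean is at least 1 in size for all of them but 1. That gene, Mex3b at 0.998, lies just under that limit, and Hnrnpll (-1.0) and Arhgef40 (1.0) lie just above it. Because the list was selected for this difference, the share of genes that pass a test describes the selection. Listed genes held 1980800 to 2527819 reads per LE library and 2995435 to 3494859 per GE library, and these are not full sequencing depths. The 10 highest genes took 24.9% to 29.6% of the values in GE and 11.9% to 14.2% in LE. Among 2582 genes with a mean of at least 10 in both epithelia, the SD of the log2 values was larger in LE for 69.2%.

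Of the 4903 genes, 4491 passed an adjusted p of 0.05 (limma on log2 of the scaled count plus 1), which is 91.6%. GE was higher for 3017 of them (61.5% of the genes tested) and LE for 1474 (30.1%). The groups did not overlap for 4406 genes (89.9%), and 4533 genes had an unadjusted p under 0.05. Large differences lay mostly on the GE side: 720 genes that passed had a log2 difference of at least 4 in favour of GE and 97 in favour of LE. The median log2 difference (GE minus LE) over all genes tested was 1.75. Other scalings moved it down by 0.68 (TMM) and 1.31 (quantile normalization), and by 0.96 in DESeq2. The split moved with it: GE was higher for 67.2% of the genes called on the deposited scale, for 56.8% of 3908 after TMM scaling, for 46.2% of 3224 after quantile normalization, for 53.7% of 3820 in edgeR with TMM and for 47.4% of 3349 in DESeq2. Genes whose 3 libraries in 1 epithelium held at most 3 reads each are given as at least so many fold higher in the other, computed at 3 reads per library, and their fitted log2 differences depend on the count added before the log.

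The 4 genes that mark the contrast were absent or nearly absent from the lower epithelium. Col6a4 (ENSMUSG00000032572), which encodes an alpha chain of type VI collagen, had scaled counts of 0, 0 and 0 in LE and 6283, 1649.8 and 1875 in GE replicates 1 to 3. GE was at least 1127-fold higher (limma adjusted p = 2.7e-05). Rgs5 (ENSMUSG00000026678), a regulator of G protein signalling known as a pericyte marker, had 0, 0 and 0 in LE and 1028, 3709 and 4957 in GE. GE was at least 1114-fold higher (limma adjusted p = 3.05e-05). GE replicate 1 was the highest for Col6a4 and the lowest for Rgs5.

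Klk10 and Klk11 lay on the other side. Both encode kallikrein-related peptidases, secreted serine proteases of many epithelia. Klk10 (ENSMUSG00000030693) had 4221, 780.2 and 655 in LE replicates 1 to 3 and 9.01, 2.30 and 0 in GE. Its log2 difference was -8.66 (SE 0.98, limma adjusted p = 0.000219). Klk11 (ENSMUSG00000067616) had 907, 232 and 469.5 in LE and 4.01, 0 and 0 in GE, which gave -8.08 on the log2 scale (SE 0.80, limma adjusted p = 0.000126). LE replicate 1 was the highest for both genes, and the groups did not overlap. Of 22 kallikrein genes searched for, 5 were listed, and 4 were higher in LE. Klk9 (35.6, 15.4 and 18.3 in LE, 0 in each GE library) and Klk14 (22.8, 10.9 and 5.40 in LE, 2.0, 2.30 and 0 in GE) were the others. Klk1 went the other way, with 13.7, 9.08 and 7.56 in LE and 123, 26.4 and 33.7 in GE (log2 difference 2.18, limma adjusted p = 0.0154), a call lost after TMM scaling, quantile normalization and in DESeq2.

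**Figure D1:**
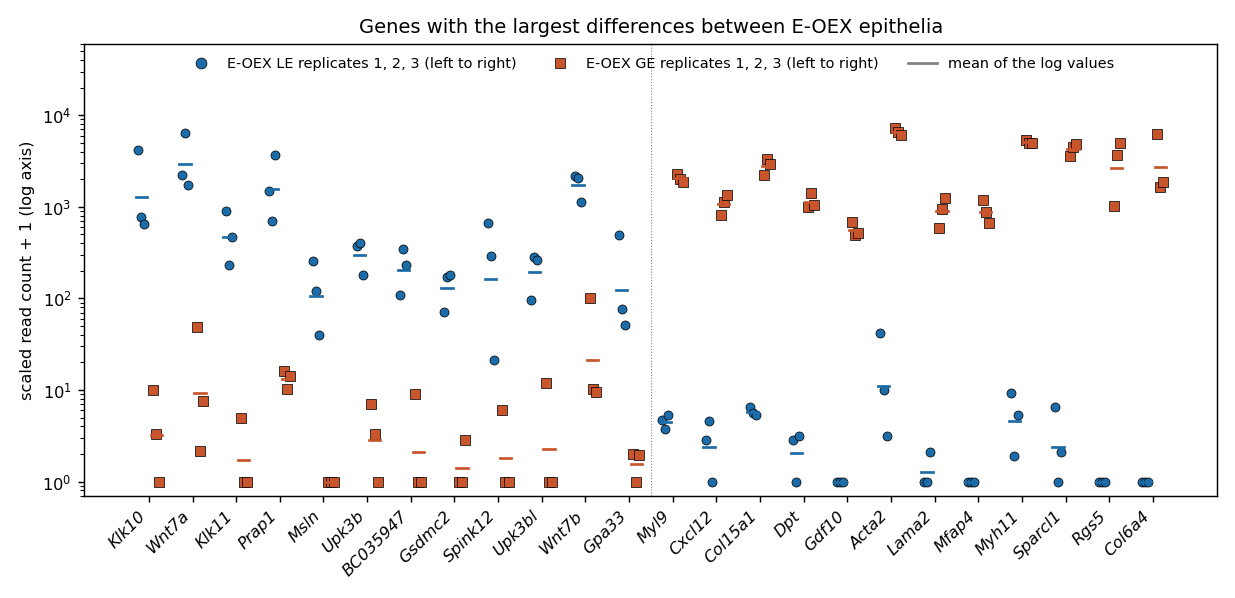
Scaled read count plus 1 (log axis) in each of the 6 E-OEX libraries for the 12 genes most in favour of LE (left of the dotted line) and the 12 most in favour of GE (right), with circles for LE, squares for GE and bars for the mean of the log values. LE values of Col6a4, Rgs5, Mfap4 and Gdf10 are 0 in all 3 libraries, and no group overlaps the other.

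Klk9, Klk10 and Klk11 are neighbours on chromosome 7. RefSeq (GRCm38.p6, the build that the submitters' processing notes name as GRCm38) places Klk11 at chr7:43774617-43779263, Klk10 at chr7:43781054-43785410 and Klk9 at chr7:43791625-43796758, and Klk14 at chr7:43680880-43695536. Col6a4 lies at chr9:105990318-106096828 and Rgs5 at chr1:169655501-169695813. The 250 bases before the annotated start of Klk10 (chr7:43780804-43781053, plus strand) and before the first of 2 starts of Klk11 (chr7:43774367-43774616, plus strand) are printed because these neighbours carry some of the largest luminal differences in animals whose manipulated pathway acts through RBPJ. Capitals mark the RBPJ core TGGGAA, searched on both strands and chosen after values were seen.
Klk11: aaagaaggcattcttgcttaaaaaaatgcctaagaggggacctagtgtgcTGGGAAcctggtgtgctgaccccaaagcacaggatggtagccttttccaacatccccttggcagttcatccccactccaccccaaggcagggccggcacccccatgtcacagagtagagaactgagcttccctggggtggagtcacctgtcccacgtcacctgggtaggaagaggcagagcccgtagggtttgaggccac
Klk10: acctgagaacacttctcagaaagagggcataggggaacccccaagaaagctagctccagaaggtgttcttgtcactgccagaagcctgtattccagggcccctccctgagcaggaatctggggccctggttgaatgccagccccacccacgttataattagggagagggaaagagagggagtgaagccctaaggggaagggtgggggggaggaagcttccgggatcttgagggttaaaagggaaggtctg
The Klk11 window holds 1 match, 200 bases before the start, and the window of its second start also holds 1, at 239 bases. The Klk10 window holds 0. Of 32851 RefSeq promoter windows of this length, 21.6% hold the core, so a match here is common.

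Among the genes with the largest differences in favour of GE, matrix and smooth muscle genes prevailed by name. Sparcl1, a secreted matrix glycoprotein, had 5.48, 0 and 1.08 in LE and 3559, 4532 and 4813 in GE (log2 difference 10.81, SE 0.66, limma adjusted p = 3.58e-05). Myh11, the myosin heavy chain of smooth muscle, had 8.22, 0.908 and 4.32 in LE and 5428, 5001 and 4984 in GE (log2 difference 10.14, SE 0.58, limma adjusted p = 3.12e-05). The GE libraries agreed closely here, while LE held a few reads. Mfap4, a protein of elastic fibres, was at 0 in the LE libraries and at 1199, 874 and 659.5 in GE, at least 314-fold higher. Lama2, the laminin alpha 2 chain, was at least 321-fold higher in GE, Dpt (dermatopontin, a matrix protein) at least 395-fold and Gdf10, a ligand of the TGF-beta family, at least 195-fold. Acta2 (smooth muscle actin) had a log2 difference of 9.23, Col15a1 (a collagen of the basement membrane zone) of 8.93, Cxcl12 (a chemokine) of 8.82 and Myl9 (a smooth muscle myosin light chain) of 8.82. For these 8 genes limma gave adjusted p-values between 2.56e-05 and 8.85e-05.

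The genes with the largest differences in favour of LE included surface, secreted and signalling genes. Msln and Upk3b among them are also in the list of mesothelial markers. Wnt7a, a Wnt ligand of the luminal epithelium, had 2226, 6406 and 1738 in LE and 48.1, 1.15 and 6.56 in GE (log2 difference -8.30, SE 1.06, limma adjusted p = 0.00038). Wnt7b had 2172, 2039 and 1130.1 in LE and 100.1, 9.20 and 8.43 in GE (log2 difference -6.33). For both ligands GE replicate 1 was the highest of the GE libraries, and it was still below each LE library. Prap1, a secreted proline-rich protein of the pregnant uterus, had 1475, 693 and 3669 in LE and 15, 9.20 and 13.1 in GE (log2 difference -6.88). Msln (mesothelin, a surface glycoprotein) had 254, 119.9 and 38.9 in LE and 0 in each GE library, at least 44.5-fold higher. Gpa33, a surface antigen of intestinal epithelium, was at least 67.2-fold higher in LE, and Gsdmc2, a gasdermin whose close copies can share reads, at least 45.2-fold. Upk3b (-6.72) and Upk3bl (-6.40), which encode a uroplakin and a related protein, Spink12 (-6.47), a serine protease inhibitor, and BC035947 (-6.63) complete the 12. Their limma adjusted p-values ran from 8.85e-05 for Prap1 to 0.00268 for Spink12, whose LE values spread from 20.5 to 665.

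**Figure D2:**
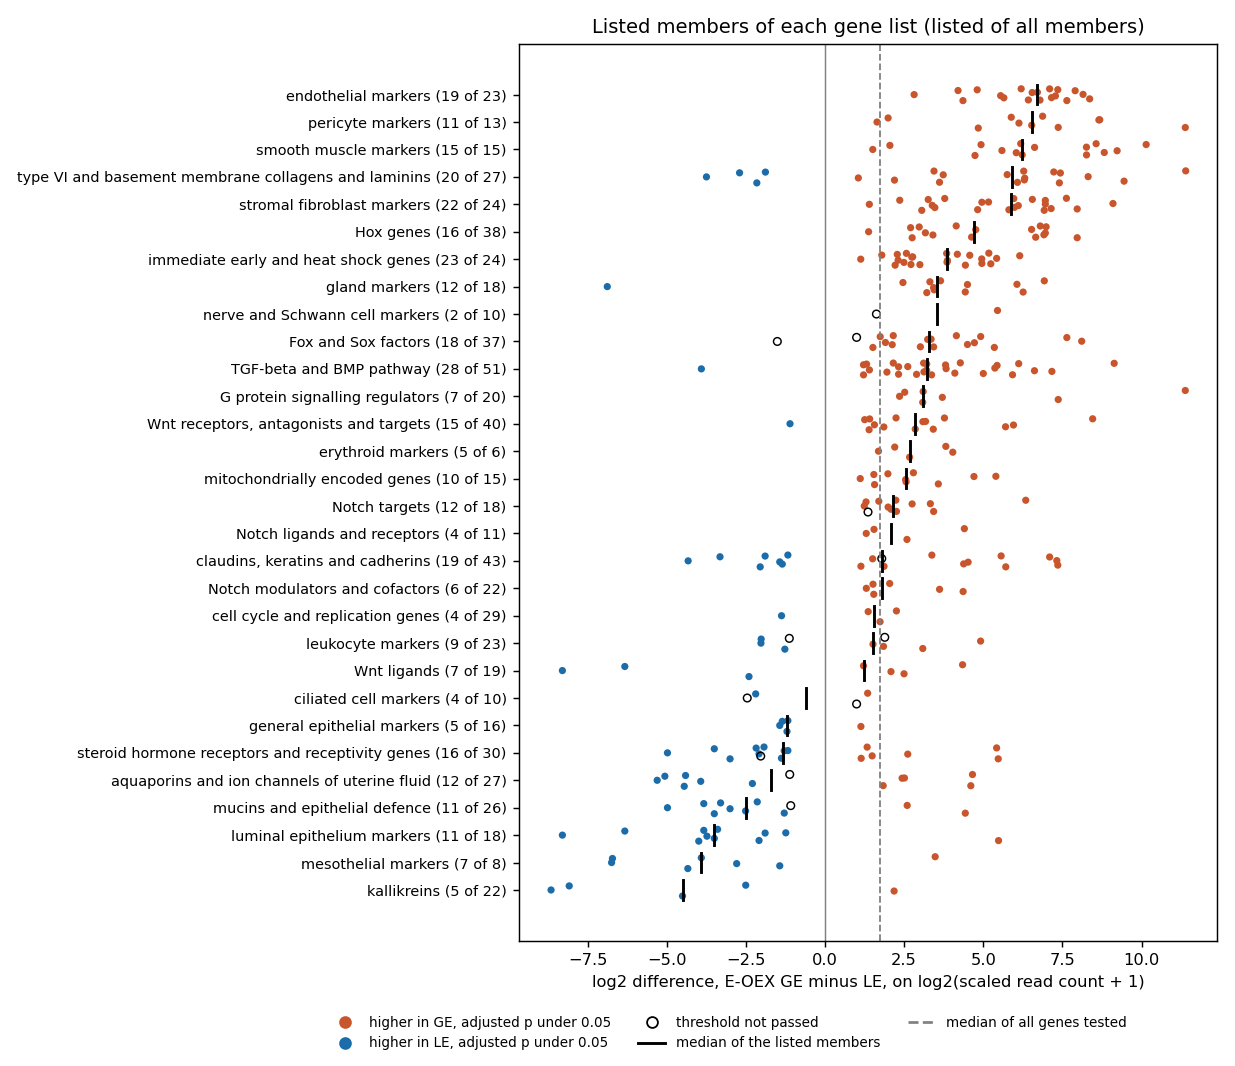
Log2 difference (GE minus LE, horizontal axis) of the listed members of 30 gene lists, with filled points for members that passed the threshold, open points for those that did not, black bars for list medians and a dashed line at the median of all genes tested, 1.75. Endothelial, pericyte, smooth muscle and stromal markers lie to the right, and kallikreins, mesothelial and luminal markers to the left.

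Of 18 gland markers, 12 were listed. GE was higher for 11 of them and LE for 1, with a median log2 difference of 3.55 (1.75 over all genes tested). Foxa2 had 426, 41.8 and 52.9 in LE and 2260.4, 1941 and 2593 in GE (log2 difference 4.50, SE 0.80, limma adjusted p = 0.00169). Cxcl15, a chemokine made by uterine glands, had 63.0, 10.9 and 18.3 in LE and 1582, 1904 and 1456 in GE (log2 difference 6.06, SE 0.61, limma adjusted p = 0.000137). LE replicate 1 held the most Foxa2 and Cxcl15 among the LE libraries, and the groups stayed apart. Lif had 519, 147 and 36.7 in LE and 519, 1249.7 and 745 in GE, so that LE replicate 1 and GE replicate 1 were level to within 1 scaled read. Its log2 difference of 2.46 (SE 0.87, limma adjusted p = 0.0264) lost the call in 5 of 6 fits that left out 1 library, and under the other 5 scalings and count models. Spink1, a pancreatic-type trypsin inhibitor, was at 0 in the LE libraries and at 9.01, 275 and 161 in GE, at least 51.1-fold higher. Calca, the calcitonin gene, was at 0 in LE and at 13, 558 and 229 in GE, and GE replicate 1 was the lowest for both. Ttr (transthyretin, a thyroid hormone carrier) reached 21, 42.5 and 11.2 in GE and was at the detection floor of 3 reads in LE. The member higher in LE was Prap1, described above.

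Of 18 luminal markers, 11 were listed, and 10 were higher in LE, with a list median of -3.50. Ltf (lactotransferrin, an estrogen-induced secretory protein) had 37561, 13488 and 22235 in LE and 6814, 1094 and 1046 in GE (log2 difference -3.50). Lpar3, a lysophosphatidic acid receptor needed for embryo spacing, had 1209.5, 819 and 3003 in LE and 229, 446 and 378 in GE (log2 difference -2.08). The exception was Vdr, the vitamin D receptor, with 30.1, 0 and 5.40 in LE and 176, 289.7 and 343 in GE (log2 difference 5.48). The 11 members summed to 1.92% to 3.18% of a library's values in LE, to 0.367% in GE replicate 1 and to 0.0875% and 0.0980% in GE replicates 2 and 3. The 12 gland markers summed to 0.0941% to 0.256% in LE and 0.474% to 0.664% in GE. Of 16 general epithelial markers, 5 were listed. Cdh1 (E-cadherin), Krt19 (a keratin), Cldn7 (a claudin) and Esrp1 (an epithelial splicing factor) were higher in LE with log2 differences of -1.43 to -1.17, and Cldn4 was higher in GE by 1.13. Cdh1 had 13287, 12026 and 20851 in LE and 7637, 6875 and 5522 in GE, so E-cadherin transcripts were present in all 6 libraries. The Cldn4 call was lost after TMM scaling and in 3 of 6 fits that left out 1 library. Epcam, Krt8, Krt18 and 8 further members are not in the E-OEX tables and were not analysed here.

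Markers of the other cell types of the uterine wall were higher in GE in large numbers. The list of smooth muscle markers had all 15 members listed and higher in GE (median log2 difference 6.23), the stromal fibroblast list 22 of 24 listed and all 22 higher (5.89), the pericyte list 11 of 13 and all 11 higher (6.53), and the endothelial list 19 of 23 and all 19 higher (6.71). With members at the floor set to their bound, these medians were 6.23, 5.49, 6.13 and 6.71. Under each scaling run, no listed member of these lists was called higher in LE, and 13 to 15, 20 to 22, 9 to 11 and 18 to 19 members were called higher in GE. A bulk library cannot tell fewer cells of a type from less RNA per cell.

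The stromal collagen gene Col1a1 had 626, 219.8 and 88.5 in LE and 29294, 31639 and 25731 in GE (log2 difference 6.96, SE 0.63, limma adjusted p = 9.3e-05). Pdgfra, a receptor of stromal fibroblasts, had 1.83, 9.08 and 5.40 in LE and 726, 1173 and 1640.4 in GE (log2 difference 7.62). LE replicate 3 held the least Col1a1, yet no LE library came near GE. Abcc9, a potassium channel subunit of pericytes, was at 0 in the LE libraries and at 361, 359.8 and 525 in GE, at least 143-fold higher. Emcn (endomucin, of venous and capillary endothelium) was at 0 in LE and at 140.2, 305 and 530.2 in GE, at least 112-fold higher. Cdh5, the cadherin of endothelial junctions, had 10, 9.99 and 4.32 in LE and 861, 1262 and 2583 in GE (log2 difference 7.35). GE replicate 3 was the highest for both endothelial genes. Smaller differences in these lists were those of Col5a2 (1.40), Smtn (1.51), Cox4i2 (1.64) and Tagln (2.05, with 12, 17.2 and 23.4 in GE).

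Summed over the listed members, stromal markers took 0.0653% to 0.278% of the values of an LE library and 3.05% to 3.42% of a GE library. Smooth muscle markers took 0.0227% to 0.0422% in LE and 0.688% to 1.0% in GE, pericyte markers 0.00322% to 0.0136% and 0.138% to 0.329%, and endothelial markers 0.0133% to 0.0190% and 0.311% to 0.729%. Twist2, Myocd, Pcp4, Rgs5, Abcc9, Rgs4 and Emcn were at 0 in all 3 LE libraries. The part of such markers in the differences described here, also those of epithelial genes, was not tested. Leukocyte markers showed no common direction: of 9 listed among 23, 4 were higher in GE (Mrc1, a macrophage receptor, at least 24.5-fold, Gzma, H2-Aa and H2-Ab1), 3 higher in LE (Ctss and Itgam by 2.02 each on the log2 scale in favour of LE, and Cd68) and 2 did not pass (Cx3cr1 and Nkg7). The count of 4 was 2 without GE replicate 2 or GE replicate 3, and the split of GE to LE calls was 1 to 4 after quantile normalization and 2 to 4 in DESeq2. H2-Ab1 lost its call in 5 of 6 fits that left out 1 library. Erythroid genes were low, with 5 of 6 listed, all 5 higher in GE, and a summed level of 11.8 to 30.1 in LE and 66.1 to 215 in GE. Their globin members are close copies that can share reads. Of the mesothelial list, 6 of 7 listed members were higher in LE, and Wt1, a transcription factor also present in stroma, was higher in GE (log2 difference 3.48). The members higher in LE include Msln and Upk3b, described above, and Krt19, which is also in the general epithelial list. Of 10 ciliated cell markers, 4 were listed: Tppp3 was higher in GE (1.35), Mcidas in LE (at least 3.11-fold), and Foxj1 (log2 difference 1.0, limma adjusted p = 0.101) and Dnah5 (-2.46) did not pass. The Tppp3 call was lost after TMM scaling, quantile normalization, in edgeR with TMM and in DESeq2, and that of Mcidas in 3 of 6 fits that left out 1 library. Of 10 nerve and Schwann cell markers, Ngfr was higher in GE (5.42) and Prph (1.62, limma adjusted p = 0.0590) did not pass.

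**Figure D3:**
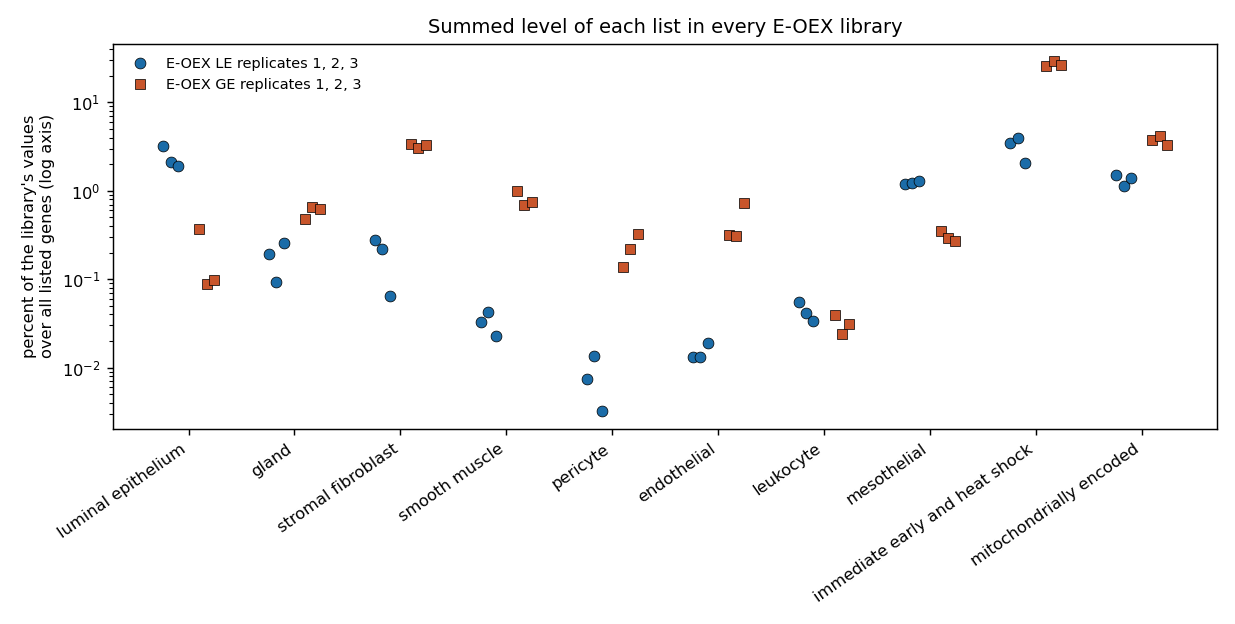
Summed level of the listed members of 10 gene lists as a percent of the values of all listed genes (log axis), for LE replicates 1 to 3 (circles, left to right) and GE replicates 1 to 3 (squares). Stromal markers sit between 0.0653% and 0.278% in LE and between 3.05% and 3.42% in GE, and immediate early and heat shock genes reach 26.05% to 29.03% in GE.

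Collagens and laminins of the pericellular matrix split by chain. Of 27 genes, 20 were listed, with 16 higher in GE and 4 in LE. All 6 type VI collagen genes were higher in GE. Col6a1 had 392, 199 and 64.8 in LE and 13417, 8196 and 7373 in GE (log2 difference 5.75), Col6a2 a log2 difference of 6.31 and Col6a3 of 7.43. These 3 encode the common chains of the type VI microfibril. Col6a5 and Col6a6, which like Col6a4 encode alternative chains, were higher in GE by at least 5.57-fold and by a log2 difference of 6.08, with Col6a6 at 616, 83.9 and 145 in GE. GE replicate 1 was the highest GE library for all 6. Among the 4 genes higher in LE, Lamb3, which encodes a laminin chain of epithelial basement membranes, had 3462, 2049.9 and 943 in LE and 351, 81.6 and 94.6 in GE (log2 difference -3.75, SE 0.67, limma adjusted p = 0.00174). GE replicate 1 was the highest GE library and lay below each LE library. Lama3 (-2.16), which encodes another laminin chain, and Col4a4 (-1.88) were also higher in LE.

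Homeobox genes of the Hox clusters were nearly silent in LE. Of 38 genes, 16 were listed and all 16 were higher in GE, with a median log2 difference of 4.70 (4.39 with bounds). Their summed level was 24.8 to 45.4 in LE and 3035 to 4142 in GE. Hoxa10, a stromal mediator of progesterone action, had 7.30, 2.72 and 3.24 in LE and 1094, 1445 and 1291 in GE (log2 difference 7.97, SE 0.46, limma adjusted p = 3.12e-05). Hoxa9, Hoxa11, Hoxd9 and Hoxd10 had log2 differences of 6.65 to 6.98, and Hoxd11 was at least 92.7-fold and Hoxd8 at least 72.4-fold higher in GE. The smallest was Hoxa3 (1.38), whose sign turned after quantile normalization. The stromal marker sum moved in the same direction, but Hoxa10 and Hoxa11 are themselves members of the stromal list. Of the 16 Hox genes, 8 were at the floor in LE.

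Of 11 Notch ligands and receptors, 4 were listed, and all 4 were higher in GE. Notch4, a receptor of endothelium, had 40.2, 24.5 and 50.7 in LE and 151, 205 and 377 in GE (log2 difference 2.59, SE 0.50, limma adjusted p = 0.00244). The ligand Dll1 had 11.9, 1.82 and 5.40 in LE and 75.1, 131 and 216 in GE (log2 difference 4.40, SE 0.69, limma adjusted p = 0.000935). Jag2 (1.55) and Dll4 (1.30) differed less, under the median of all genes tested, and both calls were lost after TMM scaling. Of 22 modulators and cofactors, 6 were listed and all 6 were higher in GE, from 1.30 for Dtx3 to 4.36 for Mfng, a fringe glycosyltransferase. List medians were 2.07 (ligands and receptors) and 1.79 (modulators and cofactors), near the 1.75 of all genes tested. Of all genes tested, 61.5% were called higher in GE. Under TMM scaling, 2 of the 4 and 2 of the 6 were called.

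Of 18 Notch targets, 12 were listed, and 11 passed, all higher in GE, with a median log2 difference of 2.16. The median of all genes tested was 1.75, and 61.5% of them were called higher in GE. Hes1 had 2002, 2767 and 2685 in LE and 12707, 7518 and 11898 in GE (log2 difference 2.08, SE 0.32, limma adjusted p = 0.00088). The 3 GE libraries lay above the 3 LE libraries. Hes5 had 85.8, 65.4 and 44.3 in LE and 449.7, 82.8 and 115 in GE (log2 difference 1.36, limma adjusted p = 0.0769) and did not pass, its groups overlapping. Hes7 was low in both epithelia, with at most 6.39 in LE and 28.7 in GE (log2 difference 2.24). The largest differences were those of Snai2 (at least 39.4-fold higher in GE), a mesenchymal repressor, Sox9 (3.43), a progenitor factor of gland epithelium, Gata3 (3.33) and Il2ra (at least 4.20-fold). The Hey genes were added after their values were seen. Hey1 had 1104, 1832 and 1139.8 in LE and 3259.8, 3029 and 3075 in GE (log2 difference 1.24, limma adjusted p = 0.00804). Hey2 had 265, 151 and 742 in LE and 597, 1293 and 1322 in GE (log2 difference 1.70, limma adjusted p = 0.0295), and LE replicate 3 overlapped GE. Heyl had 123, 207 and 50.7 in LE and 335, 385 and 647 in GE (log2 difference 1.99). Heyl is also in the pericyte list. Of the 12 listed members, 6 were called after TMM scaling, 5 after quantile normalization, 5 in edgeR with TMM, 3 in DESeq2 and 7 without GE replicate 3. Endothelial and pericyte marker sums were higher in GE too, and their part was not tested.

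**Figure D4:**
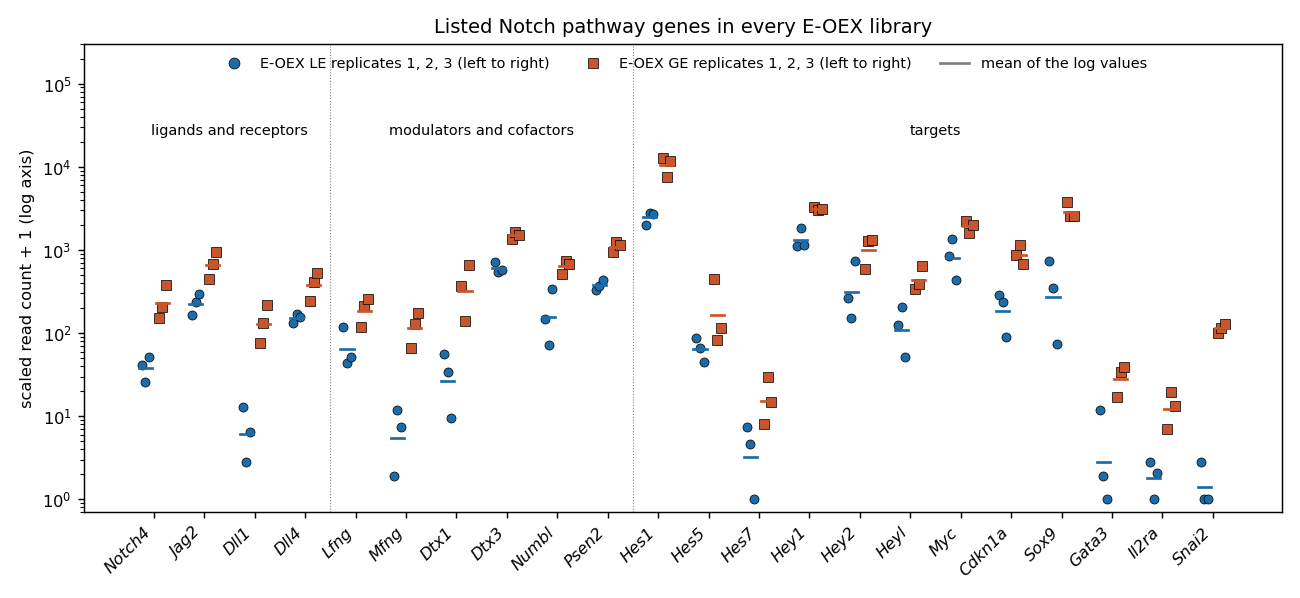
Scaled read count plus 1 (log axis) of the 22 listed Notch pathway genes in each E-OEX library, in 3 blocks by role, with circles for LE, squares for GE and bars for the mean of the log values. GE values lie above LE values for most genes, and Hes5, Lfng and Hey2 overlap.

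Wnt ligands were called in both directions. Of 7 listed among 19, LE was higher for Wnt7a, Wnt7b and Wnt4, and GE for Wnt6, Wnt2, Wnt10b and Wnt9a. Over all genes tested, 61.5% were called higher in GE and 30.1% in LE. A split among 7 members cannot be told from those shares. Wnt4, which takes part in decidualization of the stroma, had 1116, 868 and 539 in LE and 250.4, 128 and 109 in GE (log2 difference -2.40, SE 0.46, limma adjusted p = 0.00229). The 4 ligands higher in GE were low, at most 79.1 in a GE library, and under quantile normalization 1 of them was called and Wnt9a changed sign. The Wnt9a call was lost in 5 of 6 fits that left out 1 library. Of 15 listed Wnt receptors, antagonists and targets, 14 were higher in GE, 7 after quantile normalization. Sfrp4, a secreted Wnt antagonist, was at 0 in LE and at 273, 507 and 308 in GE, at least 125-fold higher. Fzd3 was the 1 receptor higher in LE (-1.11).

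Of 28 listed genes of the TGF-beta and BMP pathway, 27 were higher in GE and 1 in LE, with a median of 3.21. The median of all genes tested was 1.75, and 61.5% of them were called higher in GE. In DESeq2 the pathway count of 27 fell to 19. Gdf15, a stress-induced ligand of the family, had 386, 342 and 21.6 in LE and 17126, 16885 and 9783 in GE (log2 difference 6.62, SE 0.99, limma adjusted p = 0.000796). Bmp5 was the exception, with 96.8, 171 and 152 in LE and 15, 4.6 and 7.49 in GE (log2 difference -3.91). Of 18 listed Fox and Sox factors, 16 were higher in GE, led by Foxl2 (at 0 in LE, at least 95.9-fold higher), Sox18 (at least 178.8-fold), an endothelial factor, and Foxf1 (5.35). Foxj1 and Sox5 (log2 difference -1.51, limma adjusted p = 0.0518) did not pass. Sox5 was called higher in LE under TMM scaling. The Fox and Sox count of 16 fell to 11 in edgeR with TMM and in DESeq2. All 7 listed regulators of G protein signalling were higher in GE, from Rgs2 (2.35) to Rgs4 (at least 60.1-fold) and Rgs5. In edgeR with TMM 5 of them were called and in DESeq2 4. Rgs4 and Rgs5 are also in the pericyte list.

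Over all genes tested, 61.5% were called higher in GE and 30.1% in LE, which is the background for the counts that follow. Of 11 listed mucin and defence genes, 8 were higher in LE, 2 in GE and 1 did not pass. Lcn2 (lipocalin 2, an iron-binding defence protein) had 37702, 3048 and 1439 in LE and 1223, 42.5 and 98.4 in GE (log2 difference -4.98, limma adjusted p = 0.0132). LE replicate 1 and GE replicate 1 were each the highest of their group. The mucin gene Muc4 had a log2 difference of -3.83 and Muc20 of -3.30. Wfdc3 (4.43) and Muc16 (2.59, with overlapping groups) were higher in GE, and the Muc16 call was lost in 4 of 6 fits that left out 1 library. The Lcn2 call was lost in 2 of 6. The count of 8 fell to 5 without GE replicate 2 and to 4 without GE replicate 3. Of 12 listed channels and aquaporins, 6 were higher in LE, 5 in GE and 1 did not pass. Clca1, a secreted modulator of chloride channels, had 8034, 4425 and 10498 in LE and 619, 60.9 and 157 in GE (log2 difference -5.30). Aqp4, a water channel, had 1232, 193 and 1065 in LE and 7.01, 35.6 and 22.5 in GE (log2 difference -5.06). Aqp1, the water channel of capillary endothelium, had 87.6, 34.5 and 23.7 in LE and 988, 1097 and 1151 in GE (log2 difference 4.66), and Aqp8 was higher in GE by 4.6. The count of 6 fell to 2 without GE replicate 2 and to 2 without GE replicate 3. The gene that did not pass was Fxyd4, an ion pump regulator, with 3415, 990.0 and 18723 in LE and 1167, 2855 and 1868 in GE.

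Of 16 listed steroid response and receptivity genes, 9 were higher in LE, 6 in GE and 1 did not pass. Higher in LE were Lcn2, Ltf, C3 (-3.0), Ptgs2 (-2.18), Lpar3 and Esr2 (-1.93), among others. In 6 fits that each left out 1 library, the call was lost 5 times for Esr2, 3 times for Ptgs2 and 2 times for C3. Higher in GE were Il13ra2 (at 0 in LE, at least 15.4-fold), Gli1 (5.42), a Hedgehog effector of the stroma, Edn1 (2.61), which encodes endothelin, and Hbegf (1.49). The count of 9 fell to 5 without GE replicate 2 and to 4 without GE replicate 3, and the count of 6 in GE fell to 3 after TMM scaling, in edgeR with TMM and in DESeq2. Hdc, which makes histamine, had 13275, 1768 and 22451 in LE and 954, 3778 and 2135 in GE (log2 difference -2.03, limma adjusted p = 0.0602), with overlapping groups. Of 19 listed claudins, keratins and cadherins, 11 were higher in GE and 7 in LE, with a median of 1.79 (1.75 over all genes tested). Over all genes tested, 61.5% were called higher in GE and 30.1% in LE, so this split is near that of the whole list. Cdh5 and Cldn5, both higher in GE, are also in the endothelial list. Cldn1, a tight junction claudin, had 2079, 1905 and 2419.9 in LE and 111, 85.1 and 123 in GE (log2 difference -4.32, SE 0.33, limma adjusted p = 5.01e-05). Krt83, a hair-type keratin, had 21, 43.6 and 5.40 in LE and 4366, 2653 and 2214 in GE (log2 difference 7.32), and Krt23 had a log2 difference of 5.71. Of 29 cell cycle and replication genes, 4 were listed. Cdkn1a (2.26), Cdkn1c (1.74), both cell cycle inhibitors, and Ccnd2 (1.36) were higher in GE, and Tyms, of thymidylate synthesis, was higher in LE (-1.37). The 3 calls in favour of GE were lost in DESeq2. Leaving out 1 library lost that of Tyms in 5 of 6 fits and that of Ccnd2 in 3 of 6.

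Immediate early and heat shock genes made up a large part of the GE values. Of 24 genes, 23 were listed and all 23 were higher in GE, with a median log2 difference of 3.84, and 20 to 23 were called under each scaling run. Their sum was 2.08% to 3.94% of the values in LE and 26.05% to 29.03% in GE. Hspa1b, an inducible heat shock protein of the HSP70 family, had 10930.5, 8091 and 5862 in LE and 252686, 370020.0 and 261126 in GE (log2 difference 5.17, SE 0.31, limma adjusted p = 3.58e-05). Hspa1a had 3236, 2694 and 1479.8 in LE and 147251, 232993 and 134782 in GE (log2 difference 6.15, SE 0.37, limma adjusted p = 3.58e-05). The constitutive Hspa8 differed by 1.79. Among immediate early factors, Fos had 1981, 919 and 1183 in LE and 20157, 33791 and 31963 in GE (log2 difference 4.43), Egr1 a log2 difference of 5.42, Nr4a1 of 5.24 and Jun of 3.87. Genes of both kinds are known to respond to stress on cells. Their part in the other differences between the epithelia was not tested. Mitochondrially encoded genes moved the same way: 10 of 15 were listed and all 10 were higher in GE. They ran from mt-Nd4 (1.11) to the ribosomal RNA gene mt-Rnr2 (5.40), with 1.14% to 1.52% of the values in LE and 3.33% to 4.16% in GE. Of all genes tested, 61.5% were called higher in GE, and their median was 1.75. Of the 10, 8 were called after TMM scaling, and 7 after quantile normalization, in edgeR with TMM and in DESeq2.

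Hspa1a and Hspa1b are near-identical copies on chromosome 17, and how reads that fit both were counted is not given in the sources used here, so their separate values are uncertain. The 250 bases before their starts (RefSeq, GRCm38.p6, minus strand, chr17:34972157-34972406 for Hspa1a and chr17:34959239-34959488 for Hspa1b) are printed for 2 reasons. This pair holds the highest GE counts of the immediate early and heat shock list, and the windows show how alike the copies are. Capitals mark the heat shock element, searched as GAANNTTC, which reads the same on both strands, and chosen after values were seen.
Hspa1a: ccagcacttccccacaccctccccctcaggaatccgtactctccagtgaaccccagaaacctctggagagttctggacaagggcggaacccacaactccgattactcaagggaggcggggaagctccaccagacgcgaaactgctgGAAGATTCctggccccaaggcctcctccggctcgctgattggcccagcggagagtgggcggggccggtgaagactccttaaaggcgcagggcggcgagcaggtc
Hspa1b: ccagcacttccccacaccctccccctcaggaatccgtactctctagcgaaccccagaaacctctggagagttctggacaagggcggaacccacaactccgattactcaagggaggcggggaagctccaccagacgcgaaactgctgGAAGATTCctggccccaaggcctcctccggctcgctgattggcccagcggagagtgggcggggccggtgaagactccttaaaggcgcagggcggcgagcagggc
The windows are identical at 247 of 250 bases, and each holds 1 element, 104 bases before the start. Of 23 listed members, 17 matched a RefSeq promoter entry, and 5 of them (Fosl2, Jun, Hspa1a, Hspa1b and Hspb1) hold the element, against 7.7% of 27025 genes. The near-identical windows of Hspa1a and Hspa1b are counted separately there, so the 5 matches are not independent. By gene, the RBPJ core was in 4 of 6 matched Notch targets (24.1% of all genes), the CArG box in 1 of 11 smooth muscle markers (1.6%) and the forkhead motif TGTTTAC in 0 of 8 gland markers (3.5%), all searched on both strands.

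Of the 412 genes that did not pass, 286 had overlapping groups and 296 had the higher mean in LE. In 128 of them 1 LE library held more than 2 of 3 parts of the LE sum. The 3 with the highest mean were Ctsd, Clu and Eno1. Ctsd (cathepsin D, a lysosomal protease) had 22997, 9872 and 83581 in LE and 5696, 14387 and 9443 in GE (log2 difference -1.54, limma adjusted p = 0.0681). Clu (clusterin, a secreted chaperone) had 30301, 5448 and 2849.5 in LE and 4913, 3456 and 2911 in GE, and Eno1, a glycolytic enzyme, 13349.6, 15062 and 5253 in LE and 8288, 3871 and 3276 in GE. In each, 1 LE library lay within or below the range of GE. Ctsd, Clu and Eno1 were called higher in LE after TMM scaling.

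The same difference between epithelia was then compared with that of wild type over the 2933 genes listed in both sets of tables. Both sets list genes selected for a difference between epithelia: the smallest wild-type log2 ratio of group means was 1.0001 in size. Genes with a small difference in either genotype are therefore absent, and the counts and shares below describe the selected genes alone. An interaction term asked how far the log2 difference in E-OEX departs from the log2 difference in wild type. It passed an adjusted p of 0.05 for 315 genes (10.7%), with a positive term for 171 (5.83%) and a negative one for 144 (4.91%), and 703 had an unadjusted p under 0.05. DESeq2 called 501. Leaving out 1 library moved the count in both directions. It was 179 without Ctrl-GE replicate 3, 192 without Ctrl-LE replicate 3, 192 without Ctrl-GE replicate 1, 202 without E-OEX-GE replicate 2, 202 without E-OEX-GE replicate 3 and 209 without Ctrl-GE replicate 2. The count rose most, to 449, without Ctrl-LE replicate 1, and to 388 without E-OEX-LE replicate 3. The median term was 0.33 on the deposited scale, 0.07 after TMM scaling and 0.00 after quantile normalization. The other 1970 genes of the E-OEX tables, Hes1, Hes5, Jag2 and Fos among them, were not analysed here in wild type.

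In wild type 15 gland markers were listed, and only the 12 also listed for E-OEX were tested. Of these 12, 4 had a negative term that passed (4.91% of all genes did) and 0 a positive one. The count was 2 without E-OEX-GE replicate 3, Ctrl-LE replicate 3, Ctrl-GE replicate 1 or Ctrl-GE replicate 3. The other 8 did not pass, among them Prap1 (-1.18) and Sult1d1 (1.58). Foxa2 was 10.3 ± 5.48 in wild-type LE and 2364 ± 192 in wild-type GE (SD, n = 3), a log2 difference of 7.86 where E-OEX had 4.50 (term -3.36, SE 1.0, limma adjusted p = 0.0477). Lif was 38.8 ± 16.6 and 6399.7 ± 1706 in wild type (log2 difference 7.39), against 2.46 in E-OEX (term -4.93, SE 1.04, limma adjusted p = 0.0097). Ttr was 0.683 ± 1.18 and 1351 ± 169.7 in wild type and had a term of -6.54 (SE 0.97, limma adjusted p = 0.00152). Cxcl15 had a term of -2.99 (SE 0.72, limma adjusted p = 0.0182). The keratin genes Krt83 (-4.19) and Krt23 (-3.11) had negative terms too. In 12 fits that each left out 1 library, the call was lost 8 times for Foxa2, 4 times for Cxcl15 and 10 times for Krt23.

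Of 10 luminal markers tested, 2 had a positive term that passed and 0 a negative one, with a median term of 0.29 (0.33 over all genes). The positive count was 1 after TMM scaling and after quantile normalization, and 1 to 3 when 1 library was left out. Wnt7a (0.65), Wnt7b (0.24) and Sprr2f (-0.32) did not pass. Among the luminal markers, Lpar3 was 6812 ± 979 in wild-type LE and 223 ± 43.4 in wild-type GE (SD, n = 3), a log2 difference of -4.93 where E-OEX had -2.08 (term 2.85, SE 0.61, limma adjusted p = 0.0109). Outside that list, Lama3 (2.78), Krt19 (1.93), Sox5 (3.43), Fxyd4 (4.97) and Ctsd (2.94) had positive terms, each with the higher mean log2 level in LE in both genotypes. In E-OEX alone, Sox5, Fxyd4 and Ctsd did not pass, and the Ctsd term lost its call in 9 of 12 fits that left out 1 library. Ctsd was 230891 ± 32216 in wild-type LE and 10372 ± 1671 in wild-type GE. Klk10 and Klk11 did not pass, with terms of -2.51 (limma adjusted p = 0.248) and -0.43 (limma adjusted p = 0.86). Their wild-type levels were 82.8 ± 51.7 and 206 ± 54.4 in LE and 0 in each GE library.

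The lists of other cell types differed in how many terms passed. Among 13 smooth muscle markers tested, 5 had a positive term that passed (5.83% of all genes did) and 0 a negative one, with 3 positive without Ctrl-GE replicate 1 and 8 without Ctrl-LE replicate 1. Of 18 stromal markers 3 were positive and 1 negative, of 11 pericyte markers 1 was positive and 1 negative, and of 19 endothelial markers 1 was positive, a share near that of all genes. When 1 library was left out, the positive counts ran from 1 to 9, 0 to 5 and 0 to 6 in these 3 lists, each highest without Ctrl-LE replicate 1. Myl9 was 46.6 ± 40.4 in wild-type LE and 553 ± 123 in wild-type GE, a log2 difference of 3.93 against 8.82 in E-OEX (term 4.89, SE 0.80, limma adjusted p = 0.00227). Acta2 (4.54), Sparcl1 (5.48), Hoxa10 (4.23), Lama2 (4.14), Dpt (4.04), Mfap4 (3.62), Cxcl12 (3.47), Aqp1 (3.42), Myh11 (2.81), Cdh5 (2.67) and Abcc9 (2.61) also had positive terms. In 12 fits that each left out 1 library, the call was lost 11 times for Abcc9, 10 times for Myh11, 8 times for Dpt, 7 times for Cdh5, 5 times for Lama2 and 1 time for Cxcl12. Col6a4 was 12.2 ± 9.13 and 945 ± 166 in wild type (log2 difference 6.37), against a fitted 11.39 in E-OEX, where LE was at 0 (term 5.02, SE 0.82, limma adjusted p = 0.00227). Rgs5, at 36.9 ± 41.9 and 2105 ± 495 in wild type, had a term of 4.44 that did not pass (limma adjusted p = 0.0668). Terms of genes at 0 in E-OEX LE depend on the count added before the log. Summed stromal, muscle, pericyte and endothelial markers differ between the epithelia in both genotypes, and their part in the terms was not tested. Of the 10 immediate early and heat shock genes tested, 5 had a positive term: Nr4a1 (3.87), Egr1 (3.58), Dnajb1 (2.57), Jun (2.28) and Hsp90aa1 (1.69). That count ran from 3 to 9 when 1 library was left out.

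A few genes changed sides. Wnt4 was 111 ± 80.5 in wild-type LE and 716 ± 189 in wild-type GE, a log2 difference of 2.95, and in E-OEX it was higher in LE by 2.4 on the same scale (term -5.36, SE 0.79, limma adjusted p = 0.00152). Muc20 (term -4.83) and Clca3a2 (-6.67) turned the same way. Cdkn1c was 2499.7 ± 1537 in wild-type LE and 152 ± 37.1 in wild-type GE, a log2 difference of -3.83 against 1.74 in E-OEX (term 5.56, SE 0.67, limma adjusted p = 0.000859). Edn1 (4.48), Klk1 (4.17) and the Notch ligand Dll4 (2.58) turned with it. Dll4 was 382 ± 183 in wild-type LE and 150.4 ± 43.7 in wild-type GE. Among the Hey genes, Hey2 was 232 ± 73.4 in wild-type LE and 72.8 ± 2.57 in wild-type GE and had a term of 3.30 (SE 0.76, limma adjusted p = 0.0148). Heyl was 3.86 ± 1.1 and 159 ± 46.8 in wild type with a term of -3.02 (SE 0.75, limma adjusted p = 0.021). For Hey1 the term was -0.94 (limma adjusted p = 0.462). The terms of Clca3a2 and Klk1 each lost their call in 5 of 12 fits that left out 1 library. The E-OEX calls of Dll4 and Klk1 themselves were lost after TMM scaling, and that of Cdkn1c after quantile normalization.

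**Figure D5:**
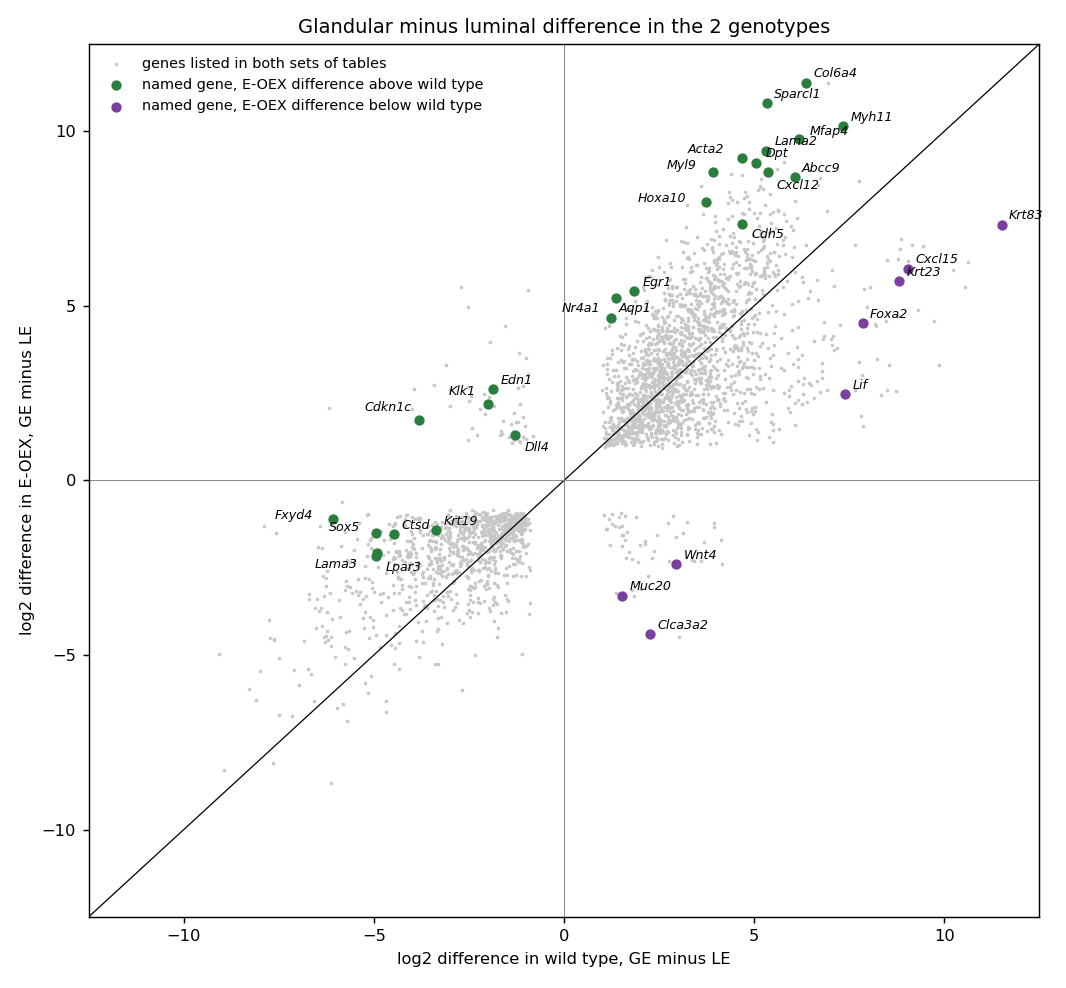
Log2 difference between GE and LE in wild type (horizontal axis) and E-OEX (vertical axis) for the genes listed in both sets of tables, with the line of equal differences. Named genes whose interaction term passed are coloured, and Wnt4, Muc20 and Clca3a2 lie below the horizontal zero line on the wild-type GE side. The empty bands around 0 come from the selection of the tables.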

How the data were processed

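RNA of luminal and glandular epithelium was purified with RNeasy columns and made into libraries with a NEBNext Ultra kit, per the labels' protocols. The submitters' processing notes name the builds GRCm38 and mm10, while the aligner, counter, annotation and scaling are not given in the sources used here. The deposited signal is a read count divided by 1 factor per library: 100% of the values were whole multiples of the library's smallest step to within 0.01. Genes were fitted with limma 3.58.1 (R 4.3.3, lmFit and eBayes with trend) on log2 of the value plus 1, over the 6 E-OEX libraries for the main comparison and over 12 libraries for the interaction. P-values were adjusted by Benjamini-Hochberg over all genes tested, with a threshold of 0.05. Because the deposited list was selected for the same difference, the adjustment covers the selected genes alone. An exact permutation test of 3 against 3 libraries cannot go below p = 0.1 and was not used. The scripts were tested on simulated data. Alternatives were pseudocounts of 0.1 and 5, a minimum mean of 10, TMM and quantile scaling, edgeR 4.0.16 and DESeq2 1.42.0 on the recovered reads, no trend, the replicate number as a block, and leaving out each library. Named genes were the 4 markers, the 12 largest differences in each direction among genes with a mean of at least 100 in the higher group, list members picked by list order and by size of difference, those of them with an interaction that passed, and the 3 highest genes that did not pass. Chosen after their values were seen were Col1a1, Col5a2, Col6a5, Col6a6, Cox4i2, Dnajb1, Dtx3, Fosl2, Hes7, Hey1, Hey2, Heyl, Hoxd8, Hoxd10, Hoxd11, Hsp90aa1, Hspa8, Hspb1, Jun, Lfng, Myocd, Pcp4, Smtn, Sprr2f, Sult1d1, Tagln, Ttr, Twist2 and mt-Nd4. A few genes that the rule selects are not reported here. The members and gene lists were chosen with earlier results of these data known.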

Additional observations from a re-analysis of the deposited data

Results flagged for a closer look

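For 33 of the genes named by rule, the difference between epithelia itself differed between genotypes. The measure was the interaction term in limma (E-OEX log2 difference minus wild-type log2 difference) with an adjusted p under 0.05. Genes chosen after their values were seen are not counted. Of those, Ttr and Heyl had negative terms that passed, and Hey2, Jun, Dnajb1, Hsp90aa1 and Hoxd10 had positive ones. Among these 33, the following genes of muscle, matrix, stroma and vessels had positive terms: Sparcl1 5.48, Col6a4 5.02, Myl9 4.89, Acta2 4.54, Hoxa10 4.23, Lama2 4.14, Dpt 4.04, Mfap4 3.62, Cxcl12 3.47, Aqp1 3.42, Myh11 2.81, Cdh5 2.67 and Abcc9 2.61. Over all tested members, a positive term passed for 5 of 13 smooth muscle, 3 of 18 stromal, 1 of 11 pericyte and 1 of 19 endothelial markers. A negative term passed for 1 stromal and 1 pericyte marker. The immediate early genes Nr4a1 (3.87) and Egr1 (3.58) were positive too. Positive terms with LE higher in wild type were those of Cdkn1c 5.56, Fxyd4 4.97, Edn1 4.48, Klk1 4.17, Sox5 3.43, Ctsd 2.94, Lpar3 2.85, Lama3 2.78, Dll4 2.58 and Krt19 1.93. Negative terms among the 33 were those of Clca3a2 -6.67, Wnt4 -5.36, Lif -4.93, Muc20 -4.83, Krt83 -4.19, Foxa2 -3.36, Krt23 -3.11 and Cxcl15 -2.99. The terms of Myh11, Cdh5, Dpt, Krt23, Abcc9 and Klk1 lost their calls after TMM scaling.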

How the results depend on the processing

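The count of 4491 genes called stayed within 1.5 times under the alternatives run, from 3224 after quantile normalization to 4539 with a pseudocount of 5, and between 3402 and 4205 when 1 library was left out. The interaction count of 315 rose to 501 in DESeq2, and it lay between 179 and 449 when 1 library was left out. The positive share of interaction calls was 54.3%, and 43.9% after TMM scaling, 42.9% after quantile normalization and 66.9% in DESeq2. In E-OEX, deviations of samples with the same replicate number had correlations of 0.0527, -0.119 and 0.143 across genes. Those with different numbers ran from -0.213 to 0.197, so this check cannot tell whether the numbers pair the samples. With the replicate block, 4374 genes and 302 interactions were called. Values that changed sign were, after quantile normalization, Hoxa3 -0.0755, Wnt9a -0.132, Foxa3 -0.102, Foxj1 -0.379 and Prph -0.253, and Fxyd4, which ranged from -2.12 to 0.000336 when 1 library was left out (the latter without E-OEX-LE replicate 3). The uncalled interaction terms of Klk11 and Klk10 also changed sign: Klk11 was 0.583 with a pseudocount of 0.1, 2.20 in edgeR on the deposited scaling, 1.85 in edgeR with TMM, 1.81 in DESeq2 and from -1.2 to 0.0605 when 1 library was left out (the latter without E-OEX-LE replicate 1), and Klk10 was 0.467 in edgeR on the deposited scaling and 0.290 in DESeq2. The cause was not tested. Depth limits the genes at 3 reads or fewer in each library of 1 epithelium, 972 in LE and 298 in GE.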
